A study of Rattus norvegicus with 12 samples.

Results

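The genes described here encode the motors of microtubule transport (kinesins, cytoplasmic dynein and its cofactor dynactin), the tubulins, the structural microtubule-associated proteins (MAPs), the neurofilament subunits and the stathmins. Members were taken by gene symbol alone: the platform symbol had to be a Kif, Kifc, Klc, Dync1, Dynl, Dctn, Tuba, Tubb, Tubg, Map1a, Map1b, Map1s, Map2, Map4, Map6, Mapt, Nefl, Nefm, Nefh, Ina or Stmn name, and each gene was represented by its brightest probe set. This gave 81 genes with 130 probe sets, out of 14218 genes, and 80 of them passed the filter on low signals and were tested among 13253 genes. The member that was not tested was Kif18b, a mitotic kinesin, which was above the threshold on 0 of 12 arrays. RNA came from the cortex of 12 male Fischer 344 rats, 6 young (3 to 5 months in the labels) and 6 aged (21 to 23 months), with 1 array per rat. All rats of both groups carried an implanted telemetry emitter for sleep recording and had been trained in a water maze, so no rat was untreated. The titles name parietal cortex and the tissue field names frontal cortex. The comparison of aged with young rats asks which transcripts of the transport system differed with age.

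Neurons keep long axons and dendrites supplied by moving cargo along microtubules, which are polymers of alpha and beta tubulin. Most kinesins walk toward the growing plus end, outward in axons, and dynein walks toward the minus end, back to the cell body. MAPs stabilize and space the microtubules, stathmins bind free tubulin and favour disassembly, and neurofilaments set the calibre of large myelinated axons.

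The promoters of 3 members named in the results below are shown first. Dync1i1 was the only member whose age groups did not overlap. Kif1c had the signal that followed the myelin markers most closely over the rats, and Tubb4b had the highest correlation with the neuron markers. Of these 3 results, only that of Kif1c had a limma adjusted p under 0.05 on the deposited scale. Each line gives the 250 bases before the annotated start, 5′ to 3′ on the strand of the gene, from RefSeq on build GRCr8. Capitals mark every match on either strand to 3 motifs. The TATA box was searched as TATAAA. The CCAAT box was searched by the letters of its name. The GC box was searched as GGGCGG.
Dync1i1, chr4:34819191-34819440, plus strand: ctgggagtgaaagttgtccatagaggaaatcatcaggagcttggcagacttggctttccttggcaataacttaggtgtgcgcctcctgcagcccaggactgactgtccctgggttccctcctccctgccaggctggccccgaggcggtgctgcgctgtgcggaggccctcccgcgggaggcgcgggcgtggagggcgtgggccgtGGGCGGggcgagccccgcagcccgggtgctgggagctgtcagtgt
Kif1c, chr10:55912843-55913092, plus strand: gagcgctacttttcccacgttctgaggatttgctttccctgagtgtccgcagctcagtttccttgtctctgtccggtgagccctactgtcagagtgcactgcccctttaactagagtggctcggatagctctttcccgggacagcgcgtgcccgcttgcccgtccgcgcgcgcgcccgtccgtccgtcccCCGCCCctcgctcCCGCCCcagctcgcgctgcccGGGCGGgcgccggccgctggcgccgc
Tubb4b, chr3:28438456-28438705, minus strand: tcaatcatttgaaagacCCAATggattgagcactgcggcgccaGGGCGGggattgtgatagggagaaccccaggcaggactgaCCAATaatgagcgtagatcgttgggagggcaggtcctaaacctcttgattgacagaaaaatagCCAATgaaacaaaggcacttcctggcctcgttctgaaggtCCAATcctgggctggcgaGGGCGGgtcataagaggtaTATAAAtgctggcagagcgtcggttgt

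Tubb4b held 1 TATA box, which began 27 bases before the start, with 4 CCAAT boxes and 2 GC boxes. Kif1c held 3 GC boxes and Dync1i1 held 1, and no other motif of the 3 was in either window. Promoters were listed for 64 of the 81 members. A GC box was in 59.4% of these 64 and in 32.4% of all 27457 promoters of the same length, a CCAAT box in 43.8% and 34.3%, and a TATA box in 10.9% and 13.1%. The motif matches are descriptions of sequence, and no binding was measured.

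Median signal intensities were 162 to 172 in young and 168 to 194 in aged rats. Those of aged rats 3, 5 and 6 (177, 177 and 194) were above every young rat. Centring each array on its median moved the median log2 fold change of the members from -0.0075 to -0.078. The lowest median correlations with the other arrays were those of aged rats 2 (0.947) and 6 (0.951), and aged rat 6 had the highest median signal. All 16 neuron markers and all 9 markers of cortical layers that were tested were above the threshold on every array. The mean log2 level of the 16 neuron markers, set to 0 in young rats, ran from -0.08 to 0.08 in young and from -0.23 to -0.01 in aged rats. That of 18 markers of oligodendrocytes and myelin ran from -0.38 to 0.43 in young and from -0.33 to 0.86 in aged rats. All 18 myelin markers had a higher aged level, with a median log2 fold change of 0.25. Of the 16 neuron markers 14 were lower and 2 higher in aged rats, with a median of -0.052. No marker of these 2 lists had a limma adjusted p under 0.05. All 9 endothelial markers had a higher aged level, with means of -0.11 to 0.087 for young and 0.049 to 0.53 for aged rats, as had 11 of 12 microglial markers, with means of -0.17 to 0.11 and -0.030 to 0.79. Aged rat 6 was highest for both lists. The part of these cell types in the age differences below was not tested. In bulk cortex, fewer cells of a type and less RNA per cell cannot be told apart.

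No transport gene rose or fell with age at an adjusted p under 0.05. The count was 0 of 80 members by limma with Benjamini-Hochberg adjustment over all genes, against 7 of 13253 genes (0.0528%, with 0.0453% higher and 0.00755% lower). With an unadjusted p of 0.05 or less, 4 members were higher in aged rats (Map4, Tubb4a, Klc3 and Tubb1) and 2 were lower (Dync1i1 and Tuba4a). These 6 are 7.5% of the members, and 9.11% of all genes met the same rule (6.49% higher and 2.62% lower), so the share was no larger than the background. Map4 alone met an unadjusted p up to 0.01 (1.25% of members, against 2.52% of all genes, of which 1.92% higher and 0.604% lower). The split of 4 higher and 2 lower became 2 and 4 after quantile normalization, and 2 and 6 after centring each array on its median.

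Most transport genes had a narrow interval on their brightest probe set. Such an interval does not cover differences between the probe sets of a gene. The 95% interval of the age difference lay within 0.5 of 0 on the log2 scale, a 1.41-fold difference, for 60 of 80 members (75%), against 66.7% of all genes. The median log2 fold change of the members was -0.0075, between -0.95 for Kifc1 and 0.74 for Kif15, and that of all genes was 0.024. The log2 fold change was above 0 in 39 of 80 members (48.8%), against 56.9% of all genes. The median standard deviation (SD) between rats of an age was 0.15 log2 for the members and 0.20 for all genes, and the members were brighter, with a median log2 signal of 10.5 against 8.55.

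**Figure D1:**
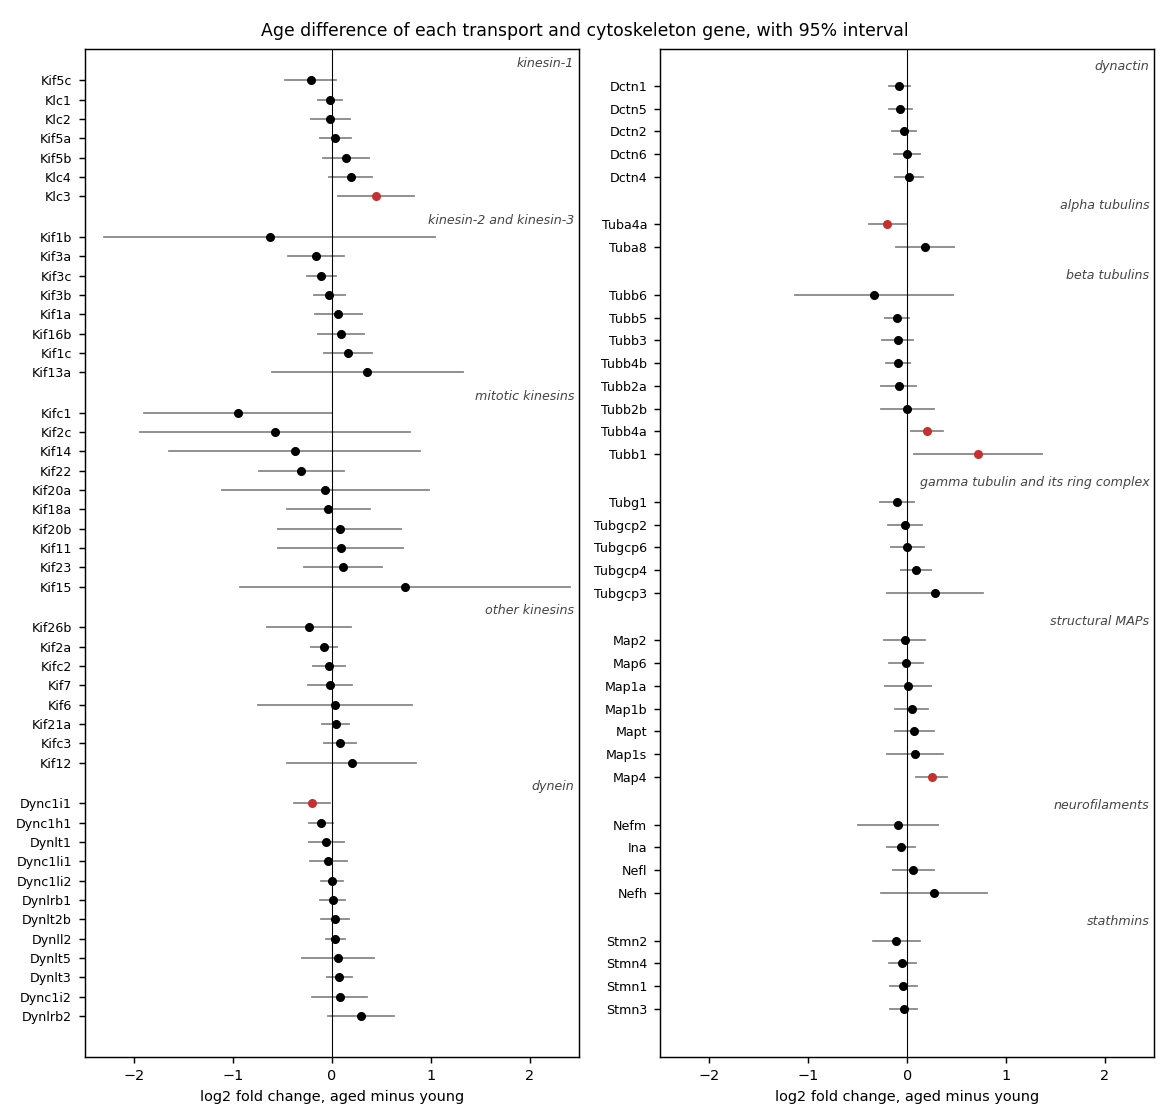
Log2 fold change, aged minus young, of each of the 80 genes tested (points), with its 95% interval from limma (lines), grouped by role. Red points mark the 6 genes at an unadjusted p up to 0.05. The widest intervals belong to dim probe sets, such as those of Kif15, Kif1b and the mitotic kinesins.

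Kinesin-1 is the classical motor of fast outward transport, built from heavy chains (Kif5a, Kif5b, Kif5c) and the light chains that bind cargo (Klc1 to Klc4). Aged rats had the higher mean log2 signal for 4 of its 7 genes and the lower for 3, and their median difference was 0.036 log2, and 6 had an interval within 0.5 of 0. The light chain Klc3 had a signal of 32.9 in the lowest, 51.9 in the median and 64.3 in the highest young rat, and of 51.5, 65.9 and 89.6 in aged rats. The groups overlapped, with 3 aged rats above every young rat, and the log2 fold change was 0.44 (SE 0.18, unadjusted p = 0.027, limma adjusted p = 0.486). Klc4 ran from 357 through a median of 404 to 446 in young rats and from 346 through 480 to 513 in aged rats. In 5 aged rats Klc4 was above every young rat and in 1 below every young rat, and the log2 fold change was 0.19 (SE 0.10, limma adjusted p = 0.595).

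The heavy chains pointed both ways. Kif5c, the form most restricted to neurons with Kif5a, ran from 1385 to 1743 in young and from 959 to 1584 in aged rats, with a log2 fold change of -0.21 (SE 0.12). Kif5b, expressed in most tissues, ran from 3992 to 4743 and from 3468 to 5597, with a log2 fold change of 0.14 (SE 0.10). Kif5a had the smallest difference of the heavy chains, 0.036 (SE 0.070), the young mean being 5530 ± 379 and the aged mean 5677 ± 510 (SD, n = 6). The groups of all heavy chains overlapped, and none reached an unadjusted p of 0.05 by limma. Klc1, the main neuronal light chain, had a log2 fold change of -0.018 with an interval from -0.14 to 0.11, and Klc2 had -0.018 with an interval from -0.22 to 0.18.

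Kinesin-2 motors (Kif3a, Kif3b, Kif3c) serve cilia and axons, and kinesin-3 motors (Kif1a, Kif1b, Kif1c, Kif13a, Kif16b) carry vesicles. Of the 8 genes, 4 were higher and 4 lower, and their median difference was 0.018 log2. Kif3c ran from 2668 through a median of 2736 to 3127 in young rats and from 2236 through 2637 to 2797 in aged rats. Its log2 fold change was -0.11 (SE 0.067, limma adjusted p = 0.663). The top young value stood apart from the rest, and 3 aged rats lay below every young rat. Kif3a had a log2 fold change of -0.16 (SE 0.13) and Kif3b of -0.027 (SE 0.072). Kif1a, which carries synaptic vesicle precursors, averaged 525 ± 63.1 for young against 550 ± 76.9 for aged rats (SD, n = 6), a log2 fold change of 0.063 (SE 0.11). Kif1c had 0.16 (SE 0.11), Kif16b had 0.095 (SE 0.11) and Kif13a had 0.36 (SE 0.44). For Kif1b the probe set of its own was dim, above the threshold in 2 young rats and 1 aged rat. Its interval ran from -2.30 to 1.05. Kif1b was also named together with other genes, and that signal was not analysed here.

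The mitotic kinesins, motors of the spindle in dividing cells, were dim and spread widely in this tissue. For 10 tested, 4 had a higher and 6 a lower aged level, and their median difference was -0.051 log2, and 1 had an interval within 0.5 of 0. The 8 tested markers of dividing cells had a median log2 fold change of -0.031, with mean levels from -0.28 to 0.21 in young and from -0.23 to 0.28 in aged rats. Kifc1, a minus-end motor that focuses spindle poles, ran from 12.3 through a median of 34.9 to 65.6 in young rats and from 6.01 through 18.9 to 26.6 in aged rats. It was above the threshold in 5 young and 3 aged rats, its groups overlapped, and its log2 fold change was -0.95 (SE 0.43, limma adjusted p = 0.548). The others, Kif2c, Kif11, Kif14, Kif15, Kif18a, Kif20a, Kif20b, Kif22 and Kif23, had log2 fold changes from -0.58 (Kif2c) to 0.74 (Kif15), each with an interval that included 0.

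The remaining kinesins (Kif2a, Kif6, Kif7, Kif12, Kif21a, Kif26b, Kifc2 and Kifc3) lay between -0.23 for Kif26b and 0.20 for Kif12, with 4 higher and 4 lower. Kif2a, which takes apart microtubule ends, had a log2 fold change of -0.076 (SE 0.060), and Kif21a, a neuronal motor that restrains microtubule growth, had 0.038 (SE 0.062).

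In dynein, 1 gene had age groups that did not overlap, by a narrow margin. Dync1i1, the intermediate chain enriched in neurons that links the motor to dynactin, had signals of 3190, 3099, 3216, 3184, 3553 and 3176 in the young rats and of 3061, 3052, 2620, 3089, 2921 and 2241 in the aged rats. All 6 aged rats were below all 6 young rats, although the nearest values, 3089 and 3099, were almost equal, young rat 5 stood far above the other young rats and aged rat 6, which also had the lowest neuron and the highest microglial level, was the lowest. The log2 fold change was -0.20 (SE 0.082, unadjusted p = 0.032, limma adjusted p = 0.503), a level 0.870 times that of young rats with an interval from 0.768 to 0.986. It was the only one of the 80 members whose groups did not overlap (1.25%), against 0.777% of all genes, 0.241% with aged rats lower and 0.536% with aged rats higher. Within the 7 rats whose sample codes belong to the lower of 2 number series, whose meaning the labels do not give, the log2 fold change was -0.10 (limma adjusted p = 0.998), and within the 5 rats of the higher series it was -0.37 (limma adjusted p = 0.663).

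No other dynein subunit reached an unadjusted p of 0.05 by limma. Dync1h1, the heavy chain that holds the motor domain, ran from 3204 through a median of 3627 to 3852 in young rats and from 3136 through 3315 to 3526 in aged rats, with a log2 fold change of -0.11 (SE 0.057, limma adjusted p = 0.595). Dync1li1, a light intermediate chain that binds cargo adaptors, had -0.035 (SE 0.085) and Dync1li2 had 0.003 with an interval from -0.11 to 0.12. The second intermediate chain, Dync1i2, had 0.077 (SE 0.13). Dynlrb2, a roadblock light chain, ran from 59.0 through 82.2 to 101 in young rats and from 82.9 through 95.5 to 133 in aged rats, with 3 aged rats above every young rat and a log2 fold change of 0.29 (SE 0.15, limma adjusted p = 0.595). The other light chains with a probe set of their own, Dynlrb1, Dynll2, Dynlt1, Dynlt2b, Dynlt3 and Dynlt5, lay between -0.055 and 0.073. Dynll1 and Dynll1l1 were named only together with other genes and were not analysed here. In all, 8 of 12 dynein genes were higher and 4 lower, with a median of 0.021, and 11 had an interval within 0.5 of 0.

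Dynactin tethers dynein to its cargo and to the microtubule. It had 5 genes with a probe set of their own, and Dctn3, which was named only together with other genes, was not analysed here. For 1 of the 5 the aged mean was the higher and for 4 the lower. Their median difference was -0.029 log2, and all 5 had an interval within 0.5 of 0. Dctn1, the p150 subunit that grips the microtubule, ran from 3621 through 3689 to 3908 in young rats and from 3357 through 3527 to 3736 in aged rats. Here 4 aged rats were below every young rat, and the log2 fold change was -0.077 (SE 0.047, limma adjusted p = 0.655). Dctn5 had -0.072, Dctn2 -0.029, Dctn6 -0.005 and Dctn4 0.019.

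Of the tubulins, the building blocks of the track, 1 alpha and 2 beta genes met an unadjusted p of 0.05. Tuba4a, an alpha tubulin, ran from 6764 through a median of 7819 to 8846 in young rats and from 5938 through 6703 to 7712 in aged rats, with 3 aged rats below every young rat. Its log2 fold change was -0.20 (SE 0.086, unadjusted p = 0.040, limma adjusted p = 0.524), and it was -0.053 within the lower code series and -0.37 within the higher. Tuba8, the other alpha tubulin with a probe set of its own, had 0.18 (SE 0.13). The abundant Tuba1a, Tuba1b and Tuba1c share their probe sets with other genes and were not analysed here.

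Tubb4a, a beta tubulin found in neurons and in oligodendrocytes, ran from 2852 through 3148 to 3375 in young rats and from 3145 through 3593 to 4191 in aged rats. Here 4 aged rats were above every young rat, the groups overlapped, and the log2 fold change was 0.20 (SE 0.074, unadjusted p = 0.019, limma adjusted p = 0.459). The value was 0.31 within the lower code series and 0.030 within the higher, and 0.13 after median centring (limma adjusted p = 0.676). The probe set has the suffix that marks probes open to cross-hybridization, as has the next brightest one of this gene.

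Tubb1, the beta tubulin of platelets, was dim, with 11.7, 24.7 and 38.4 as lowest, median and highest in young rats and 31.6, 34.3 and 50.4 in aged rats. It was above the threshold in 4 young and all 6 aged rats, and its log2 fold change was 0.72 (SE 0.30, unadjusted p = 0.033, limma adjusted p = 0.504). The values were 1.16 within the lower code series and 0.34 within the higher. Of 6 blood cell markers tested, out of 8 listed, 5 were higher in aged rats and 4 were above the threshold on every array. Their mean log2 level ran from -0.36 to 0.41 in young and from 0.031 to 1.12 in aged rats, and their part in the Tubb1 signal was not tested.

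On their brightest probe sets the other beta tubulins leaned lower without passing a test. Tubb5, widely expressed, ran from 6720 through 6914 to 7230 in young rats and from 5855 through 6360 to 7319 in aged rats. In aged rats 5 values were below every young rat and 1 was above every young rat, with a log2 fold change of -0.11 (SE 0.056, limma adjusted p = 0.595). Tubb3, the beta tubulin typical of neurons, had -0.094 (SE 0.072), Tubb4b -0.090 (SE 0.057), Tubb2a -0.087 (SE 0.081) and Tubb2b 0.001 (SE 0.12). Over its 2 probe sets and the alternatives, the value of Tubb3 ran from -0.17 to 0.43, and 2 of 29 values were above 0. The dim Tubb6 had -0.33 with an interval from -1.13 to 0.46. Over the 8 beta tubulins 3 were higher and 5 lower, with a median of -0.089, which became 0.066 when the probe sets of a gene were averaged.

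Gamma tubulin and its ring complex start new microtubules. Of the 5 genes 3 were higher and 2 lower, and their median difference was 0.002 log2. They were Tubg1 at -0.10, Tubgcp2 at -0.020, Tubgcp6 at 0.002, Tubgcp4 at 0.087 and Tubgcp3 at 0.28, and every interval included 0.

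Map4, a microtubule stabilizer of many cell types, had the smallest p of all members. Its signal was 1519, 1481, 1574, 1623, 1420 and 1334 in the young rats and 1910, 1528, 1720, 1925, 1720 and 1839 in the aged rats. In 5 aged rats it was above every young rat, and aged rat 2 lay within the young range. The means were 1492 ± 105 and 1774 ± 149 (SD, n = 6). The log2 fold change was 0.25 (SE 0.071, unadjusted p = 0.0047, limma adjusted p = 0.321), a 1.19-fold difference with an interval from 1.07 to 1.32. It was 0.21 within the lower code series and 0.29 within the higher, with limma adjusted p-values of 0.998 and 0.665.

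The other structural MAPs had smaller log2 fold changes than Map4, and whether they differed from it was not tested. Map2, the MAP of dendrites, averaged 9717 ± 615 for young against 9622 ± 1404 for aged rats (SD, n = 6). Mapt, the axonal protein tau, had 8882 ± 496 and 9415 ± 1422 (SD, n = 6). The groups overlapped for both, the spread was larger in aged rats, and the log2 fold changes were -0.025 with an interval from -0.23 to 0.18 and 0.074 with an interval from -0.12 to 0.27. Map1a had 0.012, Map1b 0.044 and Map1s 0.076. Map6, which makes microtubules stable in the cold, had -0.010. With Map4 included, 5 of the 7 were higher and 2 lower, with a median of 0.044, and all 7 had an interval within 0.5 of 0. The median was -0.026 after median centring.

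Neurofilament genes varied more between rats of one age than between the ages. The typical gene did so too, with medians over all genes of 0.097 for the absolute log2 fold change and 0.20 for the SD. Nefh, the heavy subunit of mature large axons, ran from 1739 through a median of 2193 to 3699 in young rats and from 1874 through 3122 to 4098 in aged rats. Nefm, the medium subunit, ran from 2672 through 3639 to 4645 and from 2376 through 3503 to 4593. Nefl, the light subunit on which the filament is built, ran from 5390 through 5459 to 6067 and from 4773 through 6024 to 7112. The groups overlapped throughout, and aged rat 2 was the lowest and aged rat 4 the highest aged rat for both Nefh and Nefl. The log2 fold changes were 0.27 for Nefh (SE 0.24), -0.089 for Nefm (SE 0.19) and 0.063 for Nefl (SE 0.097). Ina, the internexin that joins them in neurons of the central nervous system, had -0.062 (SE 0.066).

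The stathmins were all lower in aged rats, by small steps. Stmn2, a neuronal stathmin of growing axons, ran from 6694 through a median of 7079 to 8513 in young rats and from 5566 through 6767 to 8844 in aged rats. Its groups overlapped, with 3 aged rats below and 1 above the young range, and the log2 fold change was -0.11 (SE 0.11). Stmn4 had -0.047 (SE 0.061), Stmn1 -0.040 (SE 0.062) and Stmn3 -0.035 (SE 0.061). None of the 4 reached an unadjusted p of 0.05 by limma, and the median was -0.043.

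**Figure D2:**
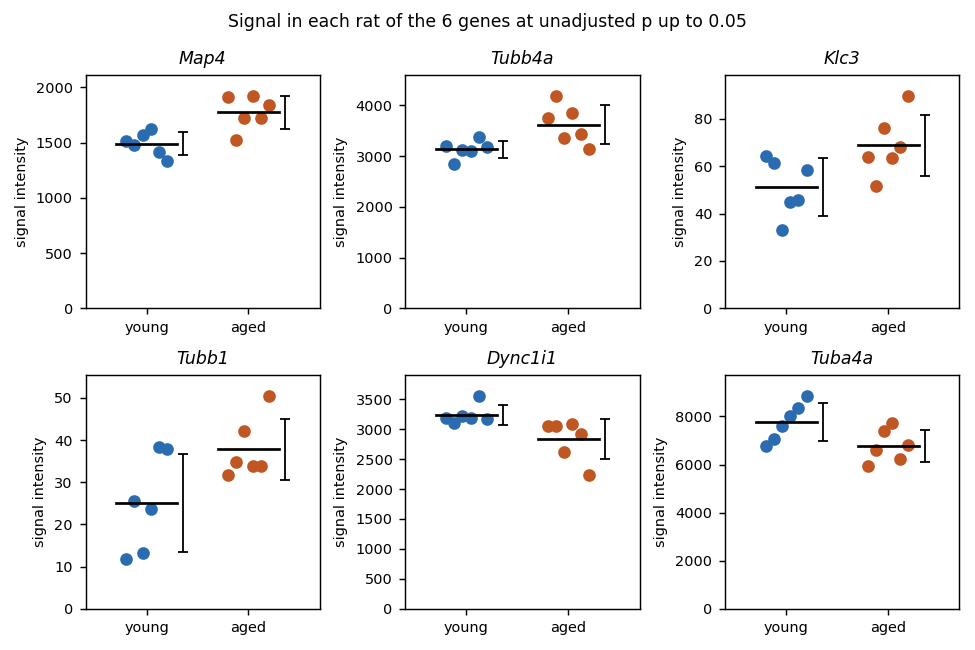
Signal intensity (linear scale) of the 6 genes at an unadjusted p up to 0.05 in each young (blue) and aged (orange) rat, with the group mean (line) and SD (bar), n = 6 per group. For Dync1i1 the highest aged value, 3089, lies just under the lowest young value, 3099, and in the other panels the groups overlap.

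Where a gene had several probe sets, these could disagree in sign, and the share over all genes is not given here. Of 32 members with more than 1 probe set, 29 had more than 1 that was tested, and the log2 fold changes were of 1 sign in 14 and of both signs in 15. Of 126 member probe sets tested, 13 were at an unadjusted p up to 0.05 (10.3%), against 8.4% of 19256 probe sets, and none passed limma with adjustment over all probe sets. The 3 probe sets of Map4 were all higher, at 0.25, 0.24 and 0.20, and the dimmest of them had a limma adjusted p of 0.822. Stmn2 had -0.26 on its second probe set (limma adjusted p = 0.393), where the signal was 4487 ± 243 for young against 3770 ± 415 for aged rats, with the SD over the rats. Tubb5 had -0.19 on its second probe set (limma adjusted p = 0.574), of the same sign as the brightest one. Kif13a, a motor of endosomes, was higher on all its sets, and none passed. The brightest had 0.36 (SE 0.44) with an interval from -0.61 to 1.32. The others had 0.65 (limma adjusted p = 0.360) and 0.30 (limma adjusted p = 0.533). On the brightest set young rats 5 and 6 had 35.9 and 60.8, and the other young rats had 184 to 203.

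Kif5a and Kif23 were among the 15 members with probe sets on both sides of 0. Kif5a had 0.036 on its brightest set and -0.19 and -0.17 on the other two, so the small difference given above holds for that set alone. Kif23, a motor of the central spindle, had 0.11 on its brightest set and -1.56 (limma adjusted p = 0.139) on a dim set that was above the threshold in 5 young rats and 1 aged rat.

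**Figure D3:**
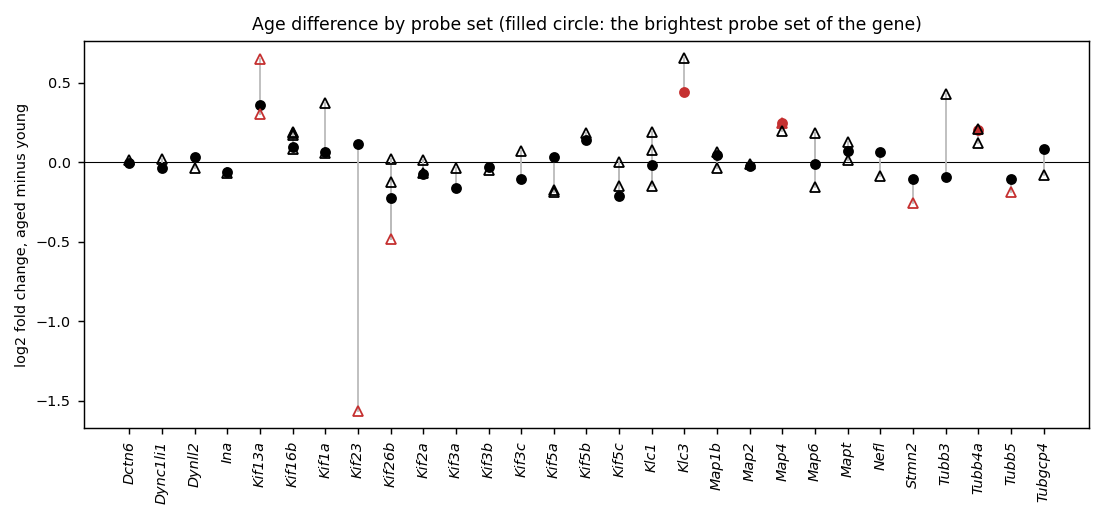
Log2 fold change, aged minus young, of every tested probe set of the 29 members with more than 1 (filled circles, the brightest set used for the gene, and triangles, the others). Red marks an unadjusted p up to 0.05, and the sets fall on both sides of 0 in 15 genes.

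The rats differed widely in myelin markers within each age, so each member was set against the mean of these markers over the 12 rats. By limma, with adjustment over 13235 genes outside the marker list, 4 of 80 members rose with the myelin markers (5%) and none fell with them, against 1.75% and 0.733% of all genes (2.48% together). They were Kif1c, Nefh, Nefl and Map4. At an unadjusted p up to 0.05 there were 10 members (12.5%), against 14.1% of all genes. In all, 160 relations were computed, 80 for each of 2 marker lists.

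Kif1c followed the myelin markers most closely, with Pearson's r = 0.945 (permutation p = 1e-05, the smallest the permutations can give, limma adjusted p = 0.0027) and Spearman's rho = 0.888 (permutation p = 0.00029). Its signal was 664 and 613 in aged rats 1 and 4, which had the highest myelin levels of 0.86 and 0.79 log2 above the young mean, and 433 in aged rat 2, whose level was -0.33. Without aged rats 1 and 4, the 2 rats farthest from the median, r was 0.878. It was 0.847 in young and 0.973 in aged rats alone, and 0.993 in the lower code series, while the higher series held too few rats.

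Nefh had r = 0.885 (permutation p = 0.00014, limma adjusted p = 0.0066) and rho = 0.867 (permutation p = 0.00049). Without the 2 farthest rats r was 0.836, within young and aged rats it was 0.845 and 0.910, and in the lower code series it was 0.957. Kif1c and Nefh kept an adjusted p under 0.05 in all 17 alternatives. Nefl had r = 0.839 (permutation p = 0.00049, limma adjusted p = 0.047) and rho = 0.811 (permutation p = 0.0023), and it kept its call in 2 of 17 alternatives. Map4 had r = 0.830 (permutation p = 0.0011, limma adjusted p = 0.0498) and rho = 0.769 (permutation p = 0.005), and it kept its call in 1 of 17. Their r without the 2 farthest rats was 0.700 and 0.672. In the lower code series r was 0.921 for Nefl and 0.792 for Map4.

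With age in the model, the limma adjusted p was 0.0117 for Kif1c, 0.0192 for Nefh, 0.0628 for Nefl and 0.0941 for Map4, and that of Nefm was 0.0358. Nefm had r = 0.700 over the 12 rats (permutation p = 0.0121, limma adjusted p = 0.135) and rho = 0.671. In the opposite direction Tubb2b, a beta tubulin of developing neurons, had r = -0.735 (permutation p = 0.0069, limma adjusted p = 0.116) and rho = -0.706. Ina, the fourth neurofilament gene, had r = 0.0274 (permutation p = 0.935) with the myelin markers.

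**Figure D4:**
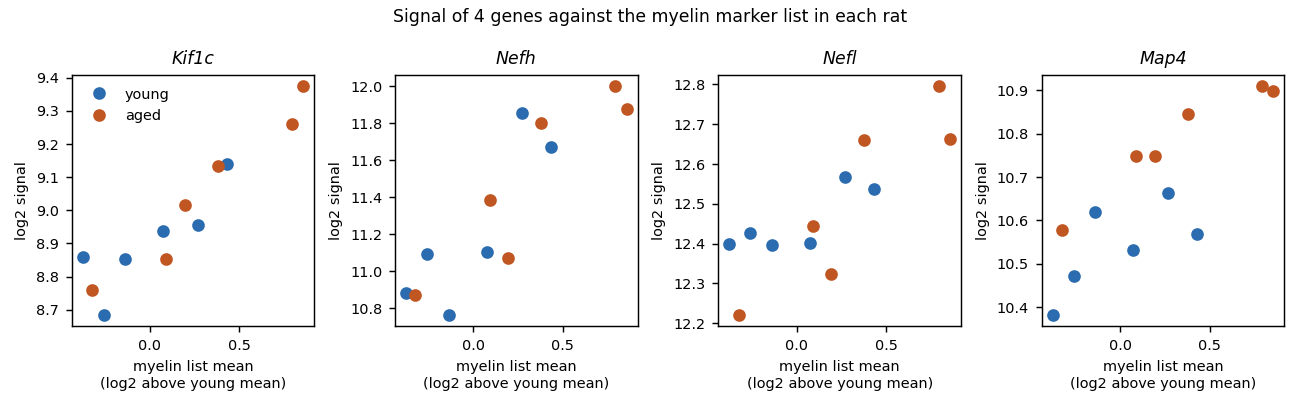
Log2 signal of Kif1c, Nefh, Nefl and Map4 against the mean of 18 myelin and oligodendrocyte markers (log2 above the young mean) in each young (blue) and aged (orange) rat. Rats of both ages lie on a rising line in the Kif1c and Nefh panels, with aged rats 1 and 4 at the right end, while in the Map4 panel 5 aged rats lie above every young rat and aged rat 2 lies among the young.

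Against the 16 neuron markers no member had a limma adjusted p under 0.05 over 13237 genes, and none of all genes did (0%). After centring each array on its median, 26 members passed (32.5%, 25 positive and 1 negative), against 14.6% of all genes, so the count of 0 depends on the scaling. At an unadjusted p up to 0.05 there were 16 members (20%), 13 positive and 3 negative, against 15.4% of all genes. The highest r was that of Tubb4b, 0.931 (permutation p = 8e-05, limma adjusted p = 0.151), with rho = 0.832. Stmn2 had r = 0.827 (permutation p = 0.001, limma adjusted p = 0.145) and Dync1i1 had r = 0.823 (permutation p = 0.00368, limma adjusted p = 0.151). Aged rat 6 had the lowest neuron level, -0.23, and the lowest Dync1i1 signal. Without aged rat 6 and young rat 4 r was 0.763 for Tubb4b, 0.622 for Stmn2 and 0.601 for Dync1i1, and the r of Dync1i1 was 0.032 within young rats and 0.948 within aged rats. Within the lower code series r was 0.766, 0.682 and 0.644. The most negative was Klc3, with r = -0.792 (permutation p = 0.00354, limma adjusted p = 0.145).

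**Figure D5:**
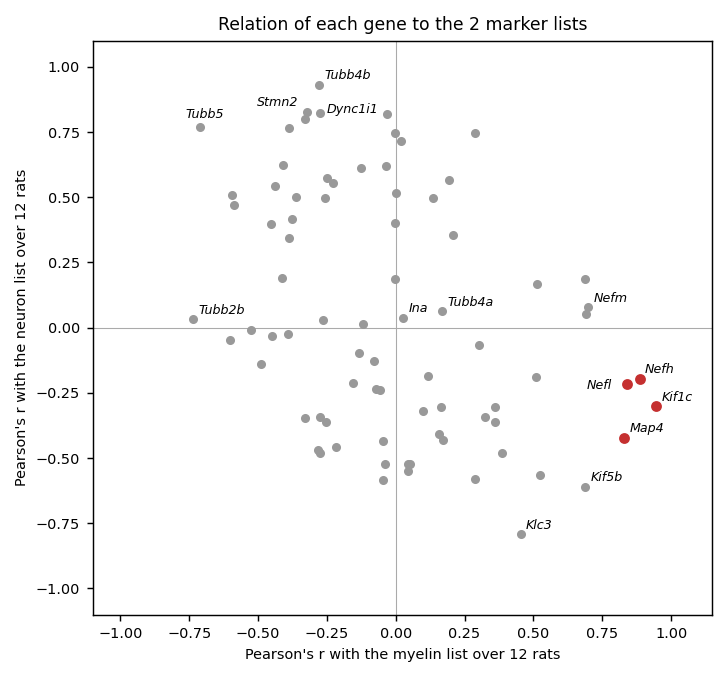
Pearson's r of each of the 80 genes over 12 rats with the mean of the myelin markers (horizontal) and of the neuron markers (vertical). Red points are the 4 genes with an adjusted p under 0.05 for the myelin markers, at r of 0.830 to 0.945, and no gene passed for the neuron markers on the deposited scale, while 26 did after median centring.

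The other genes of the transport pathway were taken from lists of their roles. Of 90 listed genes for motor adaptors, microtubule dynamics and tubulin modification, 79 were tested. Aged rats had a higher level of 29 and a lower level of 50, the median difference being -0.025 log2. None passed limma with adjustment over all genes. At an unadjusted p up to 0.05 there were 4 higher and 3 lower (8.86%), against 9.11% of all genes. For the 28 genes of microtubule dynamics and severing, 5 were higher and 23 lower, with a median of -0.052, against 12 higher and 15 lower of 27 motor adaptors and 12 of each of 24 folding and modification genes.

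Map7, which recruits kinesin-1 to microtubules, had the smallest p of these, with 1185 to 1661 in young and 1468 to 2282 in aged rats and a log2 fold change of 0.43 (SE 0.12, unadjusted p = 0.0046, limma adjusted p = 0.321). The groups overlapped. Also higher were Hook2, a dynein adaptor, at 0.33, and the tubulin carboxypeptidase genes Vash1 at 0.18 and Svbp at 0.20. Lower were Cdk5r1, the activator of the kinase Cdk5, at -0.30, Dclk1, a microtubule-binding kinase, at -0.16, and Ttl, the ligase that restores the tyrosine of alpha tubulin, at -0.16.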

How the data were processed

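The authors hybridised cortical RNA of each rat to 1 Affymetrix RAE230 2.0 array. The deposited values are linear signal intensities, 1 per probe set and array. Per the labels' processing notes they were made with MAS5, GCRMA and R 2.7.1, the order of steps is not given in the sources used here, and the mean trimmed by 2% was 500.1 on every array. Such scaling hides any change shared by all transcripts. The log2 of these intensities was used without further normalization. Of 31099 probe sets, 20832 had 1 gene symbol, 436 several and 9831 none, and only the first kind was used. The brightest probe set stood for a gene. Genes needed a log2 signal over 4.3 (a signal of 19.7) on at least 3 arrays, and 13253 of 14218 genes passed. The paper chose 4.3 from the distribution of its gcRMA intensities, and the deposited values may not share that scale. Whether a signal above the threshold marks detection on the deposited values was not tested.

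Aged and young rats, grouped by the labels, were compared with limma 3.58.1 in R 4.3.3 and Benjamini-Hochberg adjustment over 13253 genes. Relations to marker lists were fitted with limma over all genes outside the list, with r, rho and 100000 permutations (two-sided) from scipy 1.17.1, and were added after the data were seen. Fits were tested on simulated data. Named genes were the 8 with the smallest p in each direction and a fixed list by role, 38 in all. The other members were named by role to account for all of them, and the promoters and probe sets shown were chosen after their values were seen. The members and gene lists were chosen with earlier results of these data known. Alternatives were quantile normalization, median centring, averaging the probe sets of each gene, other filters and variances, the methods' t-test, a replicate block, each code series alone and each rat left out. The limma p-values set each difference or slope against the spread between rats. The permutations shuffled all rats without regard to age. Precision is limited by how many arrays there are.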

Additional observations from a re-analysis of the deposited data

Results flagged for a closer look

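In 10 of 76 groups of 6 rats, 1 rat stood far from the others by Dixon's rule, which chance alone meets in about 1 in 20 groups. Aged rat 2 accounted for 3 of them. Its Kif5b signal was 3468, against 4703 to 5597 in the other aged rats, its Klc4 signal was 346, against 450 to 513, and its Klc1 signal was 9631, against 8245 to 8708. Aged rat 6 accounted for 2, with a Kif5a signal of 6627, against 5160 to 5657, and a Kif5c signal of 959, against 1322 to 1584. In aged rat 4 the dim Kifc1 had 6.01, against 16.5 to 26.6. Among young rats, rat 5 had 3553 for Dync1i1, against 3099 to 3216, and 3.63 for the dim Kif1b probe set, against 14.9 to 24.0. Young rat 3 had 3127 for Kif3c, against 2668 to 2787, and young rat 1 had 7934 for Mapt, against 8862 to 9374.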

How the results depend on the processing

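No member had an adjusted p under 0.05 for age in any alternative run, and no result turned its direction past a threshold. At an unadjusted p up to 0.05 there were 4 members higher and 2 lower, while quantile normalization gave 2 and 4, and median centring 2 and 6, with a median log2 fold change of all members of -0.078. Trend and robust variances left 2 higher. The mean of probe sets, unequal variances and the replicate block each gave 4 lower, and the methods' t-test gave 5. The lower code series gave 2 higher and a median of 0.031, and the higher series 2 higher and 1 lower. Leaving out each rat gave 2 to 6 higher (2 without aged rat 3 or 6) and 1 to 3 lower (1 without young rat 3, 5 or 6 or aged rat 1 or 5). The rats were not treated as paired, since the labels give no shared source for a number and same-numbered rats correlated at -0.04 to 0.16, not above 0.1 in every pair. Yet 4 of 6 numbers correlated best with their own, a hint of pairing from the data and not from the design.

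Median centring moved the role medians of dynein to -0.049, dynactin to -0.10 and structural MAPs to -0.026, and the mean of probe sets moved beta tubulins to 0.066. Kinesin-2 and kinesin-3 had -0.084 in the lower code series and 0.11 in the higher, where dynein had -0.031, beta tubulins -0.18 and stathmins -0.15. The other 315 of 324 role medians moved by less than the spread between rats. The 7 other pathway genes at an unadjusted p up to 0.05 became 4 with quantile normalization, 11 with median centring, 1 in the lower code series and 3 to 10 with a rat left out. Of the 4 members related to the myelin markers, 2 passed with median centring, with the mean of probe sets and without aged rats 2 and 6 together, and 2 to 3 with any 1 rat left out. With the neuron markers 0 passed, also with any rat left out, but 26 (32.5%) did after median centring, against 14.6% of all genes. The causes were not tested. Dim probe sets, such as those used for Kif1b and Kif15, allow no close estimate.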
